A study of Drosophila melanogaster with 3 samples.

Results

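The 10 genes *trh*, *vvl*, *ct*, *grn*, *salm*, *salr*, *rib*, *upd1*, *crb* and *cv-c* act in the tracheal system or the posterior spiracles of the fly embryo, organs that need the homeodomain factor Empty spiracles (Ems). They were taken by symbol from 13945 protein-coding genes on the major chromosome arms, and all 10 symbols matched 1 gene each. Binding was read from chromatin immunoprecipitation followed by sequencing (ChIP-seq), which maps the DNA that is recovered with a protein. The material was 3 biological replicates of whole *Drosophila melanogaster* embryos, males and females pooled, aged 0 to 24 hours. They came from a transgenic line, labelled strain 16T-GFP, that stably expresses Ems with green fluorescent protein at its C terminus, and the labels' description names an antibody against that tag, while another field gives the antibody as ems. There was no second group, and libraries from embryos without the tag were not analysed here. Tracheal and spiracle cells are a minority of the embryo, so binding in fewer cells and weaker binding per cell cannot be told apart.

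Ems is switched on in the posterior spiracle by the Hox protein Abdominal-B, together with Cut, Spalt and the ligand Unpaired, and this first tier acts on genes that shape the organ, among them *crb* and *cv-c*. The trachea starts as placodes that need *trh* and *vvl*, which sink in and branch. Embryos without *ems* lack the filter structure of the spiracle and have a broken tracheal trunk.

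Each gene's region was its body with 10 kb to each side. The authors' optimal list of reproducible peaks held 3866 peaks on dm6, and the joint list called on all replicates together held 30000 entries, background regions included, of which the optimal peaks were the 3866 highest. A peak is given by its summit, the position of its highest signal, and by its rank by signal, with rank 1 the strongest. In each replicate's own list of 30000 entries, a rank of 3866 or better puts a peak as high as the optimal list reaches.

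The regions of 6 of the 10 genes held an optimal summit, and those of 4 held none. The 6 were *cv-c* with 5 summits, *crb* with 3, *trh* and *ct* with 2 each, and *grn* and *rib* with 1 each; the 4 without were *vvl*, *salm*, *salr* and *upd1*. Of all protein-coding genes, 60.5% had a summit in a region drawn the same way, so the members' 60% was near the background. The 14 summits in 486 kb made 28.8 per Mb, with an exact Poisson 95% interval of 15.7 to 48.3 that covers counting error only, against 28.9 per Mb over the arms. That is a ratio of 0.995, and 0.995 ± 0.142 in the replicates' own highest 3866 peaks (SD, n = 3), with 12, 14 and 16 summits in replicates 1, 2 and 3. When only peaks matched in both remaining replicates were kept, 12 summits stayed without replicate 1 (77% of all optimal peaks did), 9 without replicate 2 (71.4%) and 8 without replicate 3 (69.8%). Regions with 20 kb to each side held 28 summits, at a ratio of 1.41.

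**Figure D1:**
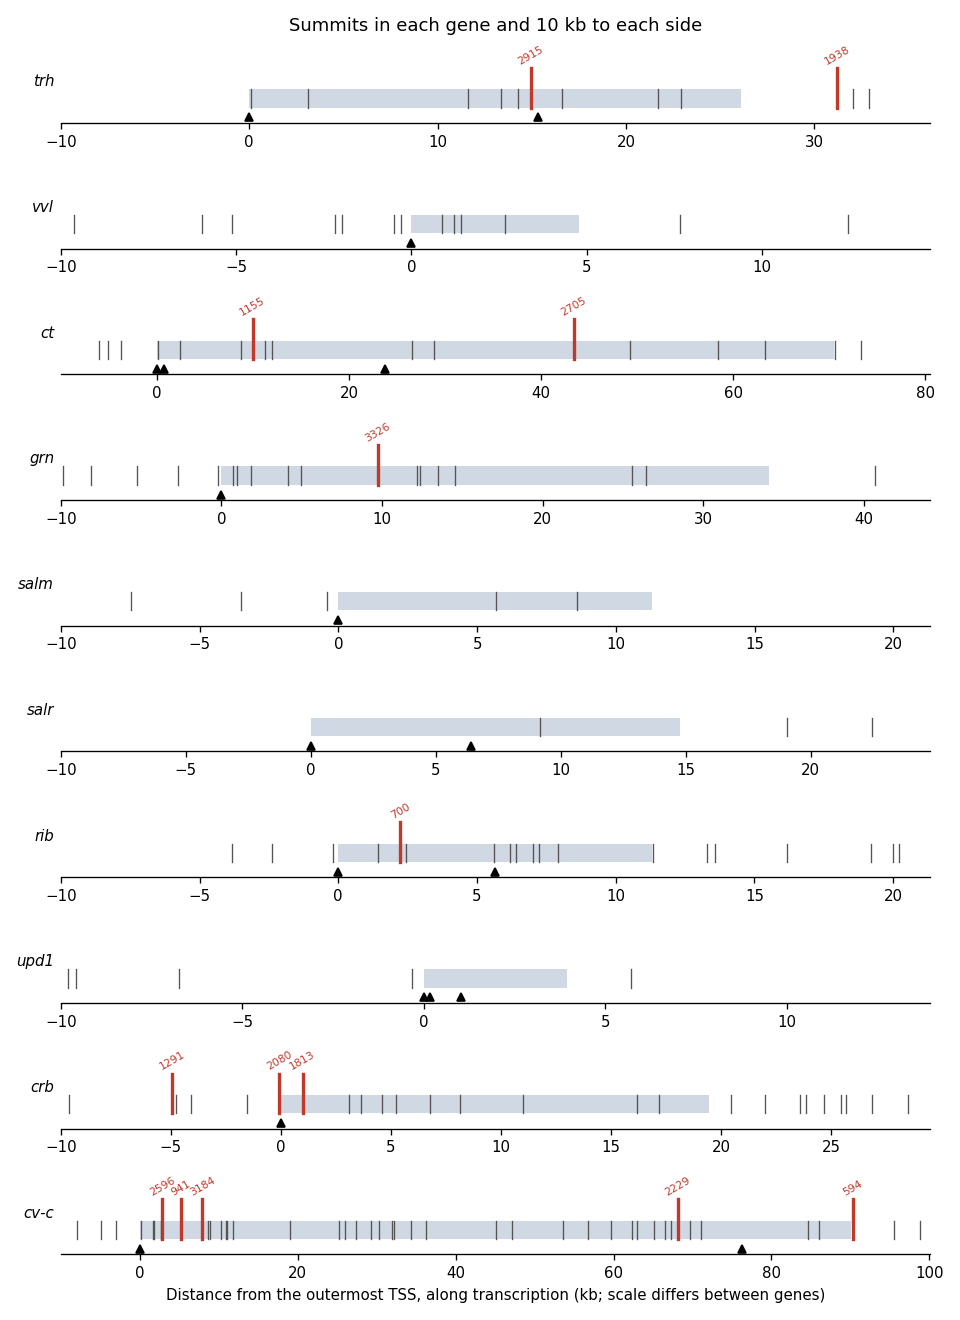
Position of the summits in each of the 10 gene regions, in kb from the outermost transcription start site (TSS) along the direction of transcription, with the gene body as a grey-blue bar and each TSS as a triangle. Tall red lines are optimal summits with their rank and short dark lines are weaker entries of the joint list. *cv-c* holds 5 optimal summits, while *vvl*, *salm*, *salr* and *upd1* hold weaker entries only.

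Sequences of 201 bases around 8 summits are shown, in or next to the bodies of *trh*, *ct*, *grn*, *crb* and *cv-c*. The last has 3 sites that differ in letters and position. The other member summits, that of *rib* at rank 700 among them, are not shown as sequences. They are read from the RefSeq Release 6 genome (dm6), 5′ to 3′ on the forward strand, with each motif searched in capitals. The *trh* site is chr3L:377577-377777, the *ct* site chrX:7618290-7618490 and the *grn* site chr3R:8171611-8171811. The *crb* promoter site is chr3R:24294905-24295105 and the *crb* intron site chr3R:24295957-24296157. The *cv-c* sites are chr3R:14478756-14478956 (2857 bp into the gene), chr3R:14476405-14476605 (5208 bp into it) and chr3R:14391323-14391523 (beyond its 3′ end).
trh inner promoter: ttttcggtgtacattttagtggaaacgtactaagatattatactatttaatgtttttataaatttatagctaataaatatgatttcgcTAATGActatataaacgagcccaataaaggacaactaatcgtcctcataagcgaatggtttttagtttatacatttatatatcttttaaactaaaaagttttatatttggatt
ct intron: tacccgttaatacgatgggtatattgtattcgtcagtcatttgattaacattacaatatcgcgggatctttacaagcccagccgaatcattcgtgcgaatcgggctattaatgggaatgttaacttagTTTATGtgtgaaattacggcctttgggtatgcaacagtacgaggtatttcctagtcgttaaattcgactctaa
grn intron: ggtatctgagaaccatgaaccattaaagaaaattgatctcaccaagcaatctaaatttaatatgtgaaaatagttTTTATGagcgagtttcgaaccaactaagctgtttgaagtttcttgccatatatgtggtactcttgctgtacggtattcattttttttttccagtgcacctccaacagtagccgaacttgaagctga
crb promoter: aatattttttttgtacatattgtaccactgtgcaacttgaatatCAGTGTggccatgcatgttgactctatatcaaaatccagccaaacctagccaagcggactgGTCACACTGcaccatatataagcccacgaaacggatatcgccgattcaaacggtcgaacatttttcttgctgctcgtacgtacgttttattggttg
crb intron: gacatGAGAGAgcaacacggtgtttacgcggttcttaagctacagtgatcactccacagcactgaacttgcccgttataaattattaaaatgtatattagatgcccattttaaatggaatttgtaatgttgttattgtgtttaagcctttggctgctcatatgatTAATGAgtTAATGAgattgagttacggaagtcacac
cv-c first site: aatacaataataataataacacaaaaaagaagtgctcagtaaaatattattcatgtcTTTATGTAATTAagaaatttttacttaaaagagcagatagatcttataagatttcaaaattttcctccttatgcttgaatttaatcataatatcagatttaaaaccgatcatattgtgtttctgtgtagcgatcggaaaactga
cv-c second site: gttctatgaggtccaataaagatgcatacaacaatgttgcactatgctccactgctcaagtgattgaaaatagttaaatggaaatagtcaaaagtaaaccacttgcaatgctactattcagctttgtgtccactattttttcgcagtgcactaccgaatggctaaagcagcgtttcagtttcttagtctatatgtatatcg
cv-c 3′ site: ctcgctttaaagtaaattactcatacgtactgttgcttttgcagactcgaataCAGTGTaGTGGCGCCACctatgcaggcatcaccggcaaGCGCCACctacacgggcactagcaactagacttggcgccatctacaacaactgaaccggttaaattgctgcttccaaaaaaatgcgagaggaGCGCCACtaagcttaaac

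The capitals mark 13 motifs searched on both strands, 10 of them listed first and 3 added after the sequences were read. Of the 14 member summits, 2 had the homeodomain palindrome TAATTA within 100 bp (14.3%), against 15.1% of all 3866 optimal summits. These were the first *cv-c* site and a summit upstream of *crb* that lies at another gene's promoter. The variant homeodomain core TAATGA was also near 2 member summits, the *trh* inner promoter and the *crb* intron, where its matches are centred 68 and 76 bp after the summit. It was near 12.7% of all optimal summits. TTTATG, a core of Caudal and Abdominal-B type, was near 4 (28.6%, exact binomial 95% interval 8.39 to 58.1, counting error only), against 21.2% of all. The 4 were the shown *ct* and *grn* sites, the first *cv-c* site and the *rib* summit, where the core is centred 1 bp from the summit. In the first *cv-c* site the palindrome directly follows that core, so the capitals there form 1 run. The second *cv-c* site held none of the 13.

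No member summit had AGATAA, a form bound by GATA factors such as Grain, which 13.2% of all optimal summits had. Other forms of the GATA type were not searched. None had the Trachealess and Tango core ACGTG (15.2% of all), the POU type ATTTGCA (7.73%), or the STAT type TTCNNNGAA (5.72%). A count of 0 of 14 allows a share of up to 23.2% (exact binomial), so none of these shares lay outside it. GAGAGA, the core of GAGA factor, was near 3 member summits (10.7% of all). Of the DREF type, whose 2 forms can overlap each other, TATCGA was near 2 (17.3% of all) and CGATAG near 1 (13.3%). The added ACACTG, part of the core promoter element known as motif 1, was near 3 member summits (20.7% of all optimal summits). GTCACACT, which can overlap it, was near 2 (2.82% of all): the *crb* promoter and the summit at *CG1233* beside *trh*. The median GC content was 37.1% in the 14 member windows and 36.8% in all windows.

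The tracheal selector *trh* (FBgn0262139, chr3L:366524-392633, reverse strand) encodes a bHLH-PAS factor that starts tracheal fate. An optimal peak at chr3L:377475-377878 had its summit 361 bp upstream of the gene's inner TSS, inside an intron of the longer transcripts, and ranked 2915. The same peak ranked 8748 in replicate 1, 3728 in replicate 2 and 1943 in replicate 3. Replicate 1 thus stood apart, with the peak well below rank 3866. The other summit of the region, at rank 1938, lay 5080 bp beyond the 3′ end of *trh* and 28 bp from the TSS of *CG1233*, at a promoter that *CG1233* shares with *Cdc5*. It was also low in replicate 1, with ranks of 5215, 1216 and 2489.

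The POU factor gene *vvl* (FBgn0086680, chr3L:6790158-6794941, forward strand), which acts beside *trh* in the placode, had no optimal summit. Its highest entry of the joint list lay 495 bp upstream of the TSS at rank 6325, with a deposited q-value of 0.057. That entry ranked 5085 in replicate 1 and 10029 in replicate 3, and replicate 2 had no overlapping entry. In replicate 1 alone, 2 summits in coding sequence of *vvl*, 1287 and 2556 bp downstream of the TSS, ranked 3845 and 3576. The first overlapped no entry in the other replicates, and the second overlapped 1 in replicate 3 at rank 11744. The next optimal summit, at rank 3605, was outside the region, 12752 bp beyond the 3′ end.

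Among the first tier of the spiracle, *ct* (FBgn0004198, chrX:7608428-7678859, forward strand) encodes the homeodomain factor Cut. Both of its optimal summits were intronic and had a *ct* TSS as the nearest. The higher, 9242 bp downstream of a TSS, ranked 1155, and ranked 1436, 1283 and 1240 in replicates 1, 2 and 3. The lower, 19593 bp downstream of the inner TSS, ranked 2705, and 2335, 3474 and 2703 in the replicates. The 3 replicates each held 2 *ct* summits among their highest 3866 peaks. Its joint list entries were at 188 per Mb against 224 per Mb over the arms.

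The GATA factor gene *grn*, which acts in the spiracle (FBgn0001138, chr3R:8147368-8181444, reverse strand), held 1 intronic optimal summit, 9733 bp downstream of its only TSS, at rank 3326. It ranked 9379 in replicate 1, 3791 in replicate 2 and 3479 in replicate 3. As at *trh*, replicate 1 was the low one and the other replicates were just inside rank 3866.

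The Spalt zinc finger genes had the fewest joint-list entries per Mb of the 10, 160 at *salm* and 86.3 at *salr*. *salm*, which acts in the tracheal trunk and the outer part of the spiracle (FBgn0261648, chr2L:11434311-11445614, reverse strand), had 5 entries of the joint list, the highest at rank 7670, 7457 bp upstream of the TSS (q = 0.128). It was absent from replicate 1 and ranked 19839 and 4918 in replicates 2 and 3. *salr* (FBgn0000287, chr2L:11358873-11373636, forward strand) had 3 entries, the highest in a coding exon at rank 22198 and present only in replicate 3 among the single lists, at rank 12297. Of all protein-coding genes, 91.6% had an entry at least as high as that of *salr*. No replicate put a summit of either gene among its highest 3866, and no optimal summit lay within 20 kb of either body.

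The BTB factor gene *rib* (FBgn0003254, chr2R:19270078-19281396, forward strand) is needed for tracheal branches and other tubes to elongate. Its single optimal peak, chr2R:19272106-19272509, ranked 700, the highest of the members apart from the *cv-c* 3′ peak. The summit was intronic, 2230 bp downstream of a TSS. It ranked 1297, 795 and 453 in replicates 1, 2 and 3, so all 3 placed it among their strongest. Its region held 19 entries in the joint list, or 607 per Mb; entries can overlap, and one at rank 6511 overlapped the optimal peak.

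*upd1* (FBgn0004956, chrX:18305354-18309291, reverse strand) encodes a ligand of the JAK/STAT pathway that shapes the spiracle. Its highest entry, 6757 bp upstream of a TSS, ranked 7865 in the joint list, and 9113, 8246 and 15589 in the replicates. An optimal summit whose nearest TSS is that of *upd1* lay outside the region, 11087 bp beyond the 3′ end, at rank 2655. That peak ranked 7182, 1654 and 3408 in replicates 1, 2 and 3, again low in replicate 1. It also lies in the region of *upd3*, one of the other spiracle genes counted below, and is the only optimal summit there.

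**Figure D2:**
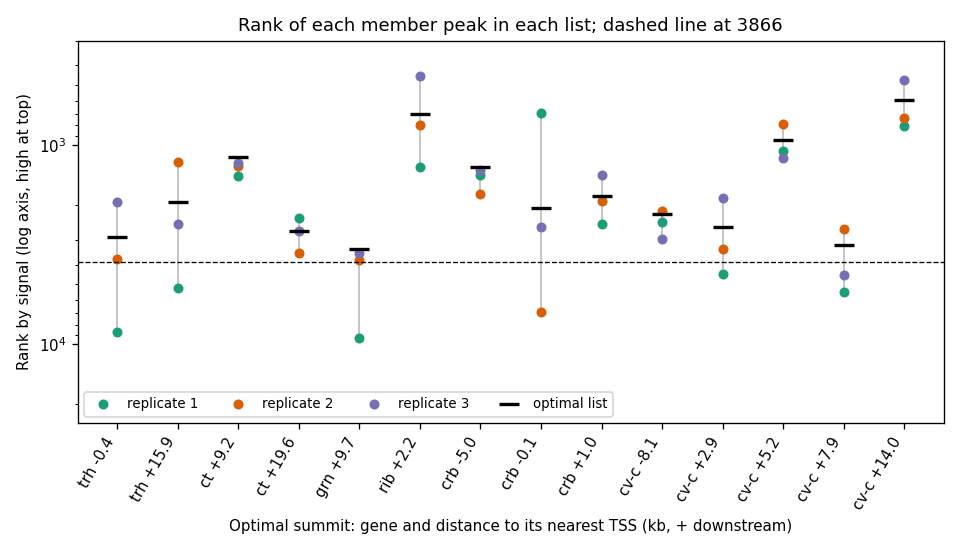
Rank by signal (log axis, strongest at the top) of each of the 14 optimal peaks in the optimal list (black bars) and in replicates 1 to 3 (coloured points), labelled with the gene and the distance in kb to the gene's nearest TSS. The dashed line marks rank 3866. At 8 of the 14 peaks all 3 replicates lie above the line, and replicate 1 lies below it at 5.

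The apical polarity gene *crb* (FBgn0259685, chr3R:24295078-24314541, forward strand) encodes a transmembrane protein that sets the apical membrane of invaginating epithelia. Its promoter peak, chr3R:24294803-24295206, had its summit 73 bp upstream of the TSS and ranked 2080. The replicates disagreed on it, with ranks of 691, 6927 and 2580, and here replicate 2 was low. A second summit, 1052 bp from the first and 979 bp into the gene in an intron, ranked 1813 and was steadier, at 2493, 1910 and 1411. The third, at rank 1291, lay 4958 bp upstream of *crb* but 52 bp from the TSS of *Uck*, the nearer gene, with replicate ranks of 1412, 1765 and 1340.

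*cv-c* (FBgn0285955, chr3R:14391683-14481713, reverse strand) acts in the bending of epithelia. With 5 optimal summits it was in the top 2.86% of protein-coding genes by count, 399 of which had 5 or more; it is also the longest member, at 90 kb, and its density of 45.4 per Mb was below that of *crb*, at 76 per Mb. In the replicates' highest 3866, its region held 3, 6 and 6 summits in replicates 1, 2 and 3.

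Of the *cv-c* summits 3 lay in a row in introns, 2857, 5208 and 7908 bp downstream of the outer TSS and 2351 and 2700 bp apart. The middle one was the strongest, at rank 941, and ranked 1069, 785 and 1161 in the replicates. The others ranked 2596 and 3184. The one at 2857 bp ranked 4479, 3345 and 1844, and the one at 7908 bp 5485, 2641 and 4516, so each fell short of rank 3866 in at least 1 replicate. A weaker entry followed at 11854 bp, rank 4306 in the joint list (q = 0.00615), and ranked 7115, 2514 and 4414 in the replicates.

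The strongest member peak of all was at the other end of *cv-c*. It spanned chr3R:14391343-14391505, only 163 bp wide where the median optimal peak was 404 bp, and its summit lay 260 bp beyond the 3′ end of the gene. It ranked 594 in the optimal list and 807, 730 and 473 in replicates 1, 2 and 3. No other gene lay within 500 bp of the summit, and the nearest TSS, that of *soti*, was 9724 bp away. The remaining summit, at rank 2229, was intronic and nearest to *natalisin*, a neuropeptide gene nested in *cv-c*, 5022 bp away. It ranked 2431, 2141 and 2984 in the replicates.

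**Figure D3:**
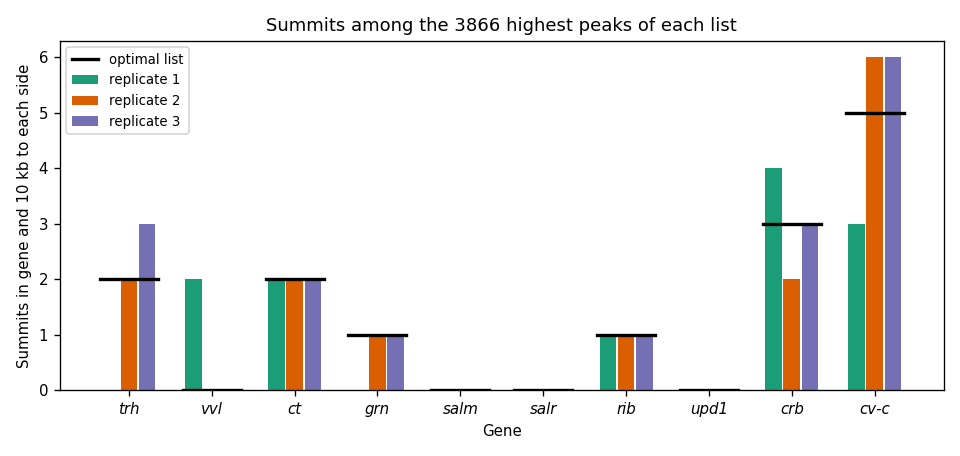
Number of summits in each gene and 10 kb to each side among the 3866 highest peaks of replicates 1 to 3 (coloured bars) and in the optimal list (black lines). *salm*, *salr* and *upd1* have 0 in all lists, *vvl* has 2 in replicate 1 only, and *cv-c* has 3, 6 and 6.

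Most member summits lay inside genes and away from a TSS. Of the 14, 5 (35.7%, exact binomial 95% interval 12.8 to 64.9) had a protein-coding gene's TSS within 1 kb, against 63.6% of all optimal summits. A further 8 (57.1%, interval 28.9 to 82.3) were inside a gene body and over 1 kb from any TSS, against 24.7%, and 1 (7.14%) was between genes, against 11.7%. These intervals cover counting error only. The share of all optimal summits within 1 kb of a TSS was inside the members' interval and that in gene bodies was below it, and the difference was not tested. The members' own bodies make up 58.9% of the regions searched, which were drawn around them. The share of the arms inside gene bodies is not given here, and whether the choice of regions bears on the difference was not tested. The nearest TSS was the member's own for 10 of the 14 and that of another gene for 4, namely *CG1233*, *Uck*, *natalisin* and *soti*. All 10 summits inside a member's body were intronic and 0 were in its coding exons.

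Only *trh* and *crb* had an optimal summit within 1 kb of their own TSS, 2 of 10, against 22.2% of all protein-coding genes. The count fell to 1 without replicate 2 (16.4% of all genes) and without replicate 3 (16.2%), where *trh* was lost. Members with a summit were mostly the longer ones, and this was not tested. The lengths overlapped: *rib*, at 11.3 kb, had a summit and *salr*, at 14.8 kb, had none. All 4 with a body of at least 20 kb (*trh*, *ct*, *grn* and *cv-c*) had one, where 67.8% of the genes of that length did. Of the 6 shorter genes 2 did, where 59.9% did. With 2 kb to each side in place of 10 kb, the same count of 6 members had a summit, against 33.7% of all genes, whose median body is 2.17 kb where that of the members is 17.1 kb; all 4 long members still did, against 54.9% of long genes. In the replicates' own lists 5 members had a summit within 10 kb in replicate 1 (60% of all genes), 6 in replicate 2 (59.7%) and 6 in replicate 3 (60%).

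**Figure D4:**
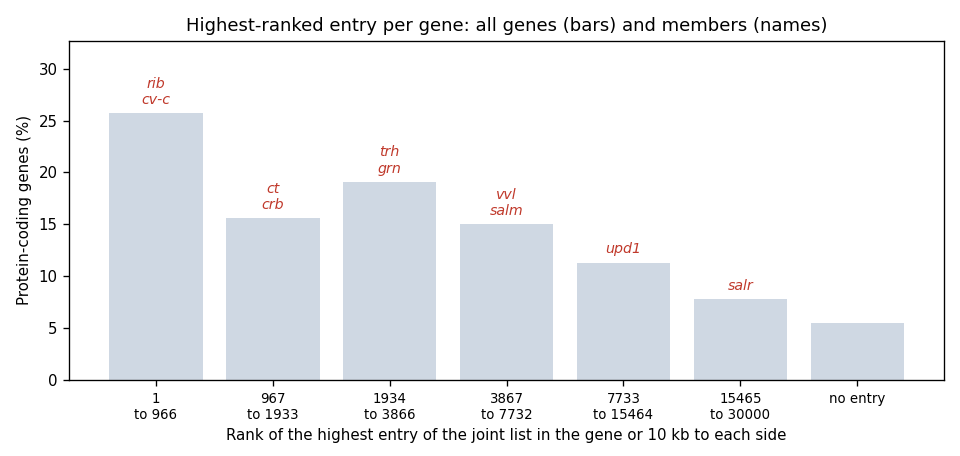
Share of protein-coding genes (bars, %) by the rank of the highest joint-list entry in the gene or 10 kb to each side, with the 10 members named above their bin. The members are spread over all 6 bins that hold an entry, from *rib* and *cv-c* at ranks 1 to 966 to *salr* beyond rank 15464.

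Replicates agreed on 8 of the 14 summits. These 8 (57.1%, exact binomial 95% interval 28.9 to 82.3) matched in the top 3866 of all 3 replicates, against 64.6% of all optimal peaks: both of *ct*, that of *rib*, the *Uck* and intron summits of *crb*, and 3 of *cv-c*. Replicate 1 matched 9 of the 14, against 79.3% of all optimal peaks, and replicates 2 and 3 matched 13 each, against 85.7% and 88%. All 14 overlapped some entry in each replicate's whole list, as did 99.3% of all optimal peaks. By signal, 6 of the 14 were above the median of the optimal list, and their median rank was 2009. The optimal list was made from the same replicates, so these matches are not independent of it.

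Weaker entries of the lists stood more densely around the members than on the arms at large. The joint list had 161 entries in the 10 regions, 331 per Mb against 224 per Mb over the arms, a ratio of 1.48. The same ratio was 1.55 for 15 other tracheal genes, 1.39 for 19 other spiracle genes and 2.08 for 87 cytoplasmic ribosomal protein genes. For 11 head gap and head patterning genes it was 1.25, for 8 Hox genes 0.985, and for all protein-coding genes with their flanks 1.09. Past rank 3866 the members' ratio was 1.55 in the joint list, and 1.39, 1.63 and 1.58 in replicates 1, 2 and 3 (1.53 ± 0.127, SD, n = 3), above the ratio among the highest 3866 peaks in each replicate (0.853, 0.995 and 1.14). By gene, joint entries ran from 633 per Mb at *crb*, 607 at *rib* and 525 at *vvl* down to 209 at *upd1*, 188 at *ct*, 160 at *salm* and 86.3 at *salr*. Such entries include background regions by the authors' own description.

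**Figure D5:**
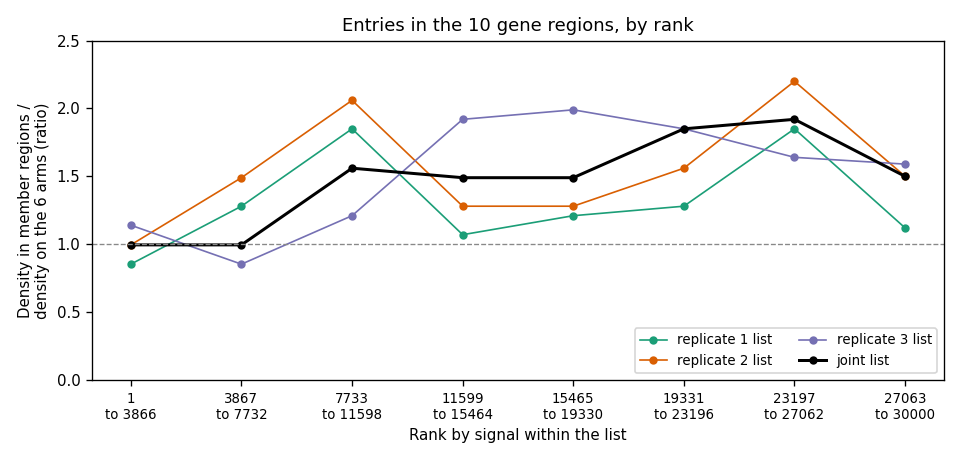
Density of entries in the 10 gene regions divided by that on the chromosome arms, in bins of rank by signal, for the joint list (black) and each replicate (coloured); the dashed line is a ratio of 1. The joint list is at 0.995 in its first and second bins and between 1.49 and 1.92 in the later ones.

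Other genes of the same organs gave a wider sample of the pathway. Among 15 other tracheal genes, from the receptors and ligands of branching to transcription factors of branch identity, 11 had an optimal summit in their regions (73.3%), where 60.5% of all protein-coding genes and 67.8% of those of at least 20 kb did; the median body of these tracheal genes is 22.1 kb. Their density ratio was 1.9 (exact Poisson 95% interval 1.31 to 2.67), and 6 had a summit within 1 kb of a TSS (40%, against 22.2% of all genes). Of their 33 summits, *pnt* and *aop* held 7 each and *spi* 6, so the ratio rests largely on these genes. The interval covers counting error only and takes no account of such grouping. Among 19 other spiracle genes 14 had a summit in their regions (73.7%), with a ratio of 1.29 (interval 0.86 to 1.87). Within 1 kb of a TSS 4 did (21.1%), near the background. The highest ranked were those of *spi*, an EGF receptor ligand (rank 86, 187 bp upstream of a TSS), *dome*, the JAK/STAT receptor (118), *ken* (364, intronic), *hop*, the JAK kinase (368), and the cadherin gene *Cad86C* (426). Those of *dome*, *hop* and *Cad86C* lay beyond the 3′ end of the gene and nearest to the TSS of *Zw*, *CG1737* and *CG42394*. The tracheal FGF receptor gene *btl* had none, and its highest joint entry ranked 10367.

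Set beside other lists, the member density ratio of 0.995 (exact Poisson 95% interval 0.544 to 1.67) lay between those of 8 Hox genes (0.695, interval 0.333 to 1.28) and 11 head gap and head patterning genes (1.41, interval 0.753 to 2.42), and the 3 intervals overlapped. These lists hold no member but share genes with the other organ lists: *Abd-B* is also in the Hox list, and *ems* and *knrl* in the head list. The ratio of 87 cytoplasmic ribosomal protein genes was 3.05 (interval 2.59 to 3.56), above the members' interval. In the replicates the member ratio was 0.995 ± 0.142, the Hox ratio 0.579 ± 0.0802 and the ribosomal ratio 3.01 ± 0.253 (SD, n = 3 each). Leaving out *cv-c* moved the members' ratio to 0.827 and leaving out *salr* to 1.07, the lowest and highest of the values with 1 gene left out.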

How the data were processed

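Peak lists on dm6 from 3 replicates of 1 group were used, and no groups were compared. Per the file notes deposited with the lists, a replicate's list came from its own alignments with a control, the joint list from those of all replicates with a control, and the optimal list from thresholding these on the irreproducible discovery rate (IDR). For the aligner, peak caller and IDR settings, the sources used here give nothing. Control reads were not analysed here. The signal, deposited by the authors on a scale not stated, served to order peaks inside each list. The −log10 q column was deposited by the authors and is printed as a q-value. The summit offset from the start of the interval, the other column used, was deposited in bp. The lists hold no read counts, so depth is unknown, and intervals cover counting error only. Nothing beyond the label of biological replicate says how the samples were separated, and SDs measure the spread between them.

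Genes and TSSs came from Ensembl release 115, and sequences from the RefSeq Release 6 genome, the assembly of dm6. Coordinates are 1-based. Peaks matched when they shared at least 1 bp, and each replicate's highest 3866 peaks, as many as the optimal list holds, were used unless the whole list is named. Density was summits per Mb outside gaps. No test across genes was run. The members and lists were chosen with earlier results of these data known. *Cad96C* matched 2 genes and was left out. The named genes are the members, the genes with the nearest TSS to their summits or holding them, and from the other organ genes the 5 with the highest-ranked summit and any of *Abd-B*, *ems*, *btl*, *tgo* and *Stat92E* with none. *Cdc5*, *pnt*, *aop*, *upd3* and the genes of summits outside the regions were chosen after seeing values. *Abd-B*, *ems* and *knrl* are named only as genes that stand in more than 1 list. Counting functions were tested on simulated summits with Python 3.11.15, and SciPy 1.17.1 gave the intervals. Alternatives varied the flanks, TSS and motif windows, the signal threshold, the matching rule and the replicates kept.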

Additional observations from a re-analysis of the deposited data

How the results depend on the processing

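The number of members with a summit was 6 with flanks of 2 kb, 8 with 20 kb (75.6% of all genes) and 4 with the optimal peaks above the median signal (41.4%), and 4 to 6 with 1 replicate left out, *trh* and *grn* being lost without replicate 2 or 3, where the share of all genes also fell, to 50.6% and 50.1%. Their summits numbered 28 with flanks of 20 kb, 6 above the median signal, and 8 to 12 with 1 replicate left out, each of which also asks for a match in both remaining replicates. The density ratio, 0.995, was 1.27 with flanks of 2 kb, 1.41 with 20 kb, 0.853 above the median signal, and 0.815 to 1.11 with 1 replicate left out. Members with a summit near a TSS numbered 4 within 5 kb (40.6% of all genes) and 1 above the median signal (12.6%), and 1 to 2 with 1 replicate left out. Summits with TAATTA numbered 1 within 50 bp (7.76% of all optimal summits), 4 within 200 bp (25.1%), 1 above the median signal (15.6%), and 1 to 2 with 1 replicate left out. All 14 summits matched in the whole replicate lists (99.3% of all optimal peaks), and 8 to 12 with 1 replicate left out (69.8% to 77%). Wider windows and shorter lists hold more or fewer peaks by construction, which moves the counts. The cause of the other moves, those of the density ratio among them, was not tested. No paired analysis was possible because there is 1 group.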

Other observations

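Between 10 and 20 kb from the members' bodies lay as many optimal summits as inside the regions, 14, though these outer stretches are shorter in total than the regions. With flanks of 20 kb, which take in both, the density ratio was 1.41, against 0.995 with 10 kb. The nearest TSS belonged to the member for 2 of the 14 outer summits, those beyond the 3′ ends of *vvl* and *upd1*, and 6 were within 1 kb of another gene's TSS. The highest was at *NK7.1*, a homeobox gene next to *cv-c* (rank 308, 424 bp from its TSS). *CHES-1-like*, a forkhead gene next to *ct*, had the nearest TSS to 4 summits, the highest at rank 340. *Ptpmeg*, a phosphatase gene next to *trh*, had 3, at ranks 1167, 1260 and 2103, and each replicate held all 3 among its highest 3866. These neighbours were chosen after seeing values.

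The *cv-c* 3′ site printed above held GTGGCGC, part of the motif of the insulator protein CTCF, 4 times over both strands, with the first and second matches overlapping. Of all 3866 optimal summits, 2.95% had the letters within 100 bp, and 1, at this site, had at least 4 matches. The motif was chosen after the sequence was read, so the count is a description, and CTCF was not measured.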
